A study of Mus musculus with 11 samples.

Results

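The genes described here are those that stood on the same side of vehicle in activated mouse CD8+ T cells whether the cells had received the lipase AOAH or a phosphatidylcholine. A gene was a member if its mean over all 11 libraries was at least 1 TPM (a unit for a gene's share of all transcripts in a library, corrected for gene length) and all 7 treated values lay above, or all 7 lay below, the 4 vehicle values. Of 25562 genes in the table, 11596 reached the expression floor, and 360 of these were members. The higher members numbered 213, which is 1.84% of the genes tested, and the lower members 147, which is 1.27%. With a block by batch, setting each treated library only against the vehicle library of its own batch, the counts were 462 and 366. Without vehicle 3 the higher members numbered 326, and without vehicle 4 the lower members numbered 226. Because the measured values chose the members, their differences from vehicle are a description and carry no test. The rule did not compare AOAH with phosphatidylcholine directly, and that contrast was tested. Requiring both treatments on the same side of vehicle still favours genes whose AOAH and phosphatidylcholine levels lie near each other.

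Acyloxyacyl hydrolase (AOAH) is a secreted lipase that inactivates bacterial lipopolysaccharide by cutting off acyl chains, and it also acts on phospholipids. PC16:0-20:4 is a phosphatidylcholine, a main lipid of cell membranes, with palmitic acid on one position of its glycerol and arachidonic acid, the precursor of prostaglandins and leukotrienes, on the other. A CD8+ T cell activated through its receptor switches on kinases, calcium and MAP kinase signalling. It then makes transcription factors of the NFAT, EGR and NR4A families, chemokines, cytotoxic granules, and inhibitory receptors such as PD-1 and LAG-3 that restrain further signalling.

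The cells were isolated from spleens of C57BL/6 mice with a kit, held for 22 h in a pretreatment and then stimulated for 24 h through CD3 (antibody at 1 µg/mL) and CD28 (0.5 µg/mL). The 4 AOAH libraries received 10 µg/mL recombinant human AOAH carrying a His tag, together with the ethanol control. The 3 phosphatidylcholine libraries, called PC below, received 60 µM PC16:0-20:4 and the protein buffer, which was 10% glycerol in PBS, and the 4 vehicle libraries received ethanol and that same buffer. All groups were activated alike, so an unactivated reference is not part of the comparison. No glycerol share is stated for the AOAH libraries, and what AOAH did and what a different buffer did cannot be told apart. The labels disagree on the step at which AOAH was given (pretreatment or activation), on plate-bound antibody or beads, and on whether interleukin-2 was in the medium. They number the libraries by batch, with no batch 4 for PC, and the label of vehicle 4 does not name the PC comparison. Separate animals or cultures are not named, so a p-value here measures the spread among the sequenced libraries alone, which may be technical.

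Depth is unknown, since TPM keeps none, and each library had between 11423 and 11739 genes at 1 TPM or more. Cd8a, the defining marker of these cells, lay between 331 and 446 TPM, and Cd4 did not exceed 0.42 TPM. Summed over the 6 genes of the CD8 T cell list, the level was 1446 to 1475 TPM with AOAH, 1869 to 1925 with PC and 1610 to 1658 with vehicle, and none of the 6 was a member. The 13 myeloid markers in the table summed to 5.02 to 6.13 TPM with AOAH, 7.53 to 8.51 with PC and 6.32 to 9.98 with vehicle, and none of them was a member. The 12 B cell markers summed to 154 to 164, 191 to 200 and 178 to 185 TPM in the same order, most of it Ighm, while Ms4a1 stayed at or under 0.11 TPM. The part of these marker levels in the results was not tested. Vehicle libraries did not lie evenly: vehicle 1 and 3 both lay above vehicle 2 and 4 in 32.6% of the genes tested, and in 111 of the 213 higher members (52.1%). Among AOAH libraries, 1 and 3 both lay above 2 and 4 in 18.4% of the genes tested and in 61 of the 147 lower members (41.5%). Against vehicle 1 and 3 alone the median log2 difference of the higher members was 0.16 with AOAH and 0.16 with PC, and against vehicle 2 and 4 alone it was 0.21 and 0.22. In bulk RNA, fewer cells of a type and less RNA per cell cannot be told apart.

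The shared differences were small. The median higher member lay 0.19 above vehicle with AOAH and 0.20 with PC on the log2(TPM + 1) scale, and the median lower member lay at -0.29 with AOAH and -0.23 with PC; over all genes tested the medians were 0.01 and 0.00. No member reached a 2-fold difference with both treatments. Taking the smaller of the 2 differences as the shared change, 29 higher and 32 lower members had at least 0.3, and 4 and 4 had at least 0.5. Higher members had a median level of 63.1 TPM, against 21.8 TPM for lower members and 18.3 TPM for all genes tested. Together the higher members made up 25994 to 27420 TPM in the vehicle libraries, 30249 to 30579 with AOAH and 31145 to 31422 with PC.

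Each treatment on its own separated many more genes than both did together. Every AOAH library lay above all vehicle libraries in 15.0% of the genes tested and below in 13.8%, and for PC these shares were 15.6% and 18.2%. With limma, a linear model with moderated variances and Benjamini-Hochberg adjustment over all genes tested, 188 of the 213 higher members were called against vehicle with AOAH (background 14.4%) and 159 with PC (background 10.3%). Among the 147 lower members 128 were called with AOAH (background 13.4%) and 96 with PC (background 13.5%). The rule used these contrasts, so the counts are given beside their background and not read further. Both comparisons share the vehicle libraries, so the differences of 1 gene with AOAH and with PC are not independent of each other.

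The lists of cell cycle genes held no member. None of the 40 tested S phase genes, none of the 43 G2 and M phase genes and none of the 44 tested replication-dependent histone genes was a member. The median S phase gene lay 0.28 above vehicle with AOAH and at -0.49 with PC, and the median G2 and M phase gene lay 0.33 above and at -0.99, on the log2(TPM + 1) scale. Nor did the lists of nuclear oxidative phosphorylation genes, of the mitochondrial genome, of the tricarboxylic acid cycle, of liver X receptor targets, of heat shock proteins or of iron handling hold a member.

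**Figure D1:**
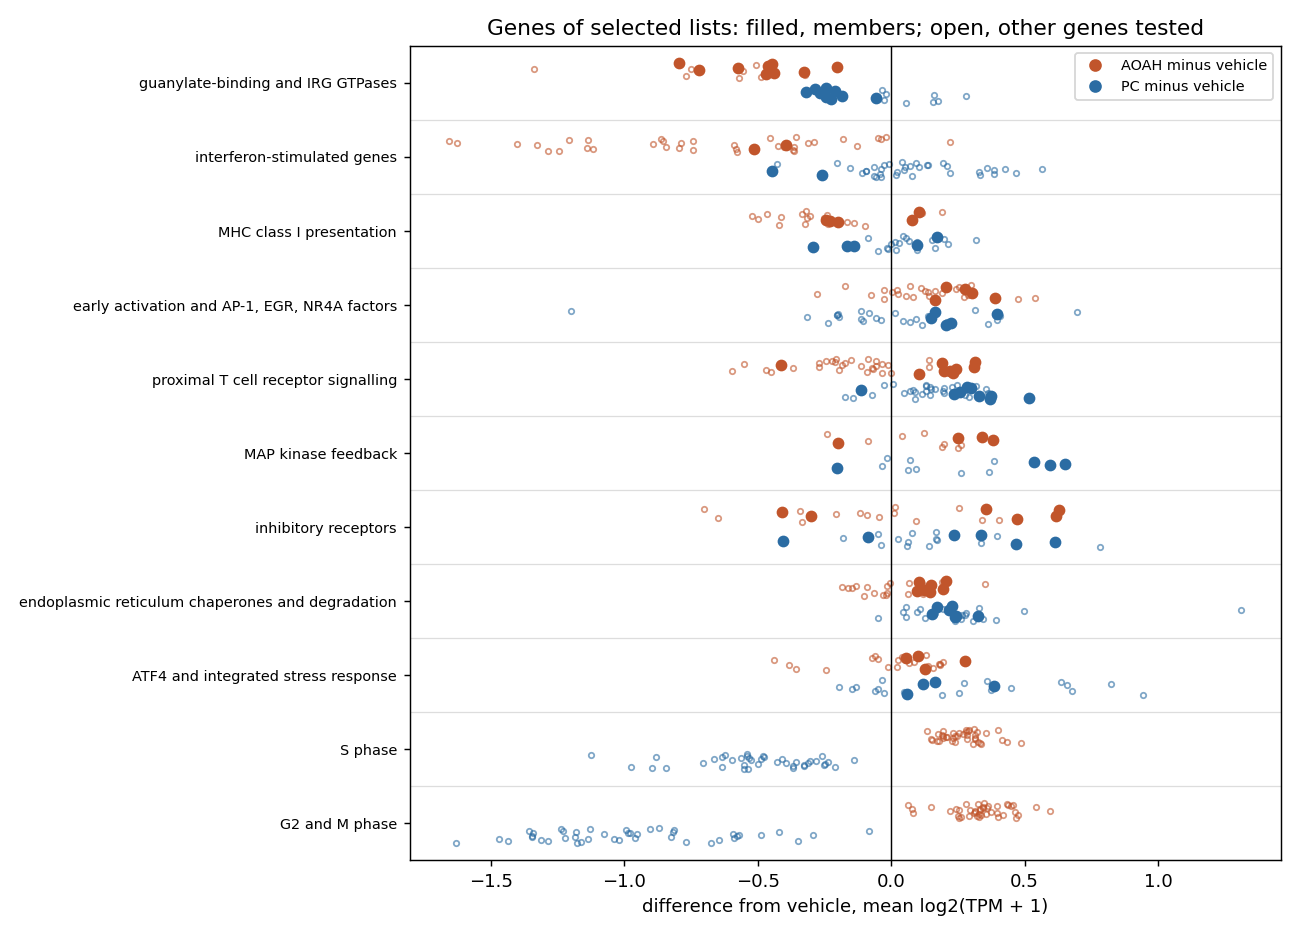
Difference from vehicle in mean log2(TPM + 1), on the horizontal axis, for every tested gene of 11 lists, with AOAH in orange and PC in blue; filled points are members and open points are other genes. All tested S phase and G2 and M phase genes lie to the right of 0 with AOAH and to the left with PC and hold no filled point, while 9 of the 17 guanylate-binding and IRG GTPases are filled and lie left of 0 in both colours.

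Inhibitory receptors held some of the largest shared differences. Of 20 tested genes of this list, 4 were higher members, namely Pdcd1, Lag3, Cd160 and Cd200, and 2 were lower members, namely Il10ra and Cd96. Lag3, which encodes a receptor that binds MHC class II and restrains T cells, measured 27.4, 24.5, 28.9 and 23.7 TPM in vehicle 1 to 4. It measured 39.9, 40.9, 41.0 and 40.0 TPM with AOAH and 39.1, 41.0 and 40.9 TPM with PC. The 7 treated libraries lay within 2 TPM of each other and all stood more than 10 TPM above the highest vehicle library. Mean levels were 40.5 ± 0.579 TPM (SD, n = 4) with AOAH, 40.4 ± 1.05 (n = 3) with PC and 26.1 ± 2.43 (n = 4) with vehicle, 1.55-fold over vehicle in both cases.

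Pdcd1, which encodes PD-1, measured 58.8, 48.9, 60.9 and 51.1 TPM in the vehicle libraries, 75.0, 77.0, 75.1 and 77.7 TPM with AOAH and 77.6, 73.9 and 76.6 TPM with PC. Treated libraries of both kinds overlapped each other and none overlapped vehicle. For both genes the difference between AOAH and PC was near 0 with a bounded interval. It was 0.00 for Lag3 (95% interval -0.13 to 0.14, limma adjusted p = 0.969) and 0.00 for Pdcd1 (-0.14 to 0.15, adjusted p = 0.972). Both the rule and the naming by largest shared change favour genes with the treatments near each other. Cd200, the ligand of an inhibitory receptor on myeloid cells, averaged 128 TPM with AOAH, 104 with PC and 82.4 with vehicle. AOAH lay 0.29 above PC (limma adjusted p = 0.0148), a call lost without PC 2 (adjusted p = 0.0534) or PC 3 (0.0615). Cd160, a receptor for HVEM, averaged 72.0, 66.2 and 56.2 TPM in that order. The median of the inhibitory receptor list was -0.02 with AOAH and 0.15 with PC. By limma against vehicle, 7 genes of the list were called higher and 6 lower with AOAH, and 7 higher and 1 lower with PC. Over all genes tested, 14.4% were called higher and 13.4% lower with AOAH, and 10.3% and 13.5% with PC. Among the other tested genes of the list, Ctla4 differed from vehicle by 0.01 with AOAH and -0.18 with PC, neither called, and Havcr2 by -0.11 and 0.02, neither called.

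**Figure D2:**
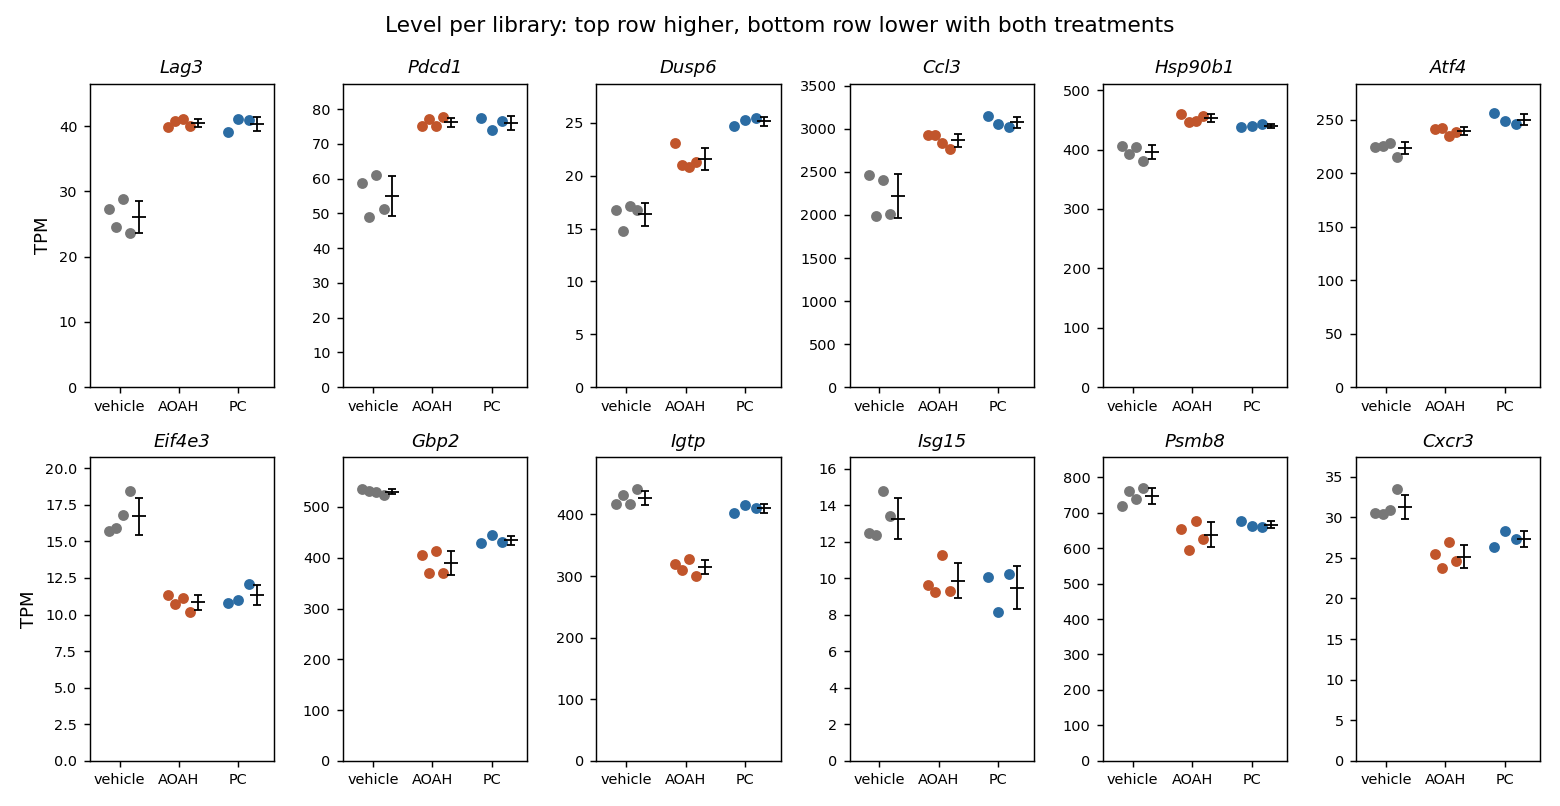
TPM in each library (points; vehicle grey, AOAH orange, PC blue) with the mean and SD of each group in black, for 6 higher members in the top row and 6 lower members in the bottom row; every axis starts at 0. Lag3 and Pdcd1 reach nearly equal levels with both treatments (40.5 and 40.4 TPM, 76.2 and 76.0 TPM), Dusp6 lies higher with PC than with AOAH, and Igtp lies far lower with AOAH (315 TPM) than with PC (410 TPM) beside vehicle at 427 TPM.

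Of 38 tested genes of proximal receptor signalling, 8 were higher members (21.1%) and 1, Grap2, was a lower member. The higher ones were Zap70, the kinase recruited to the CD3 chains, Lcp2, the adaptor SLP-76, the scavenger-type surface receptors Cd5 and Cd6, the phosphatases Ptpn6 (SHP-1) and Ubash3b, and the adaptors Sla and Sh2d2a. The list as a whole did not lie above vehicle with AOAH: its median was -0.08 with AOAH and 0.18 with PC. Requiring a gap of at least 0.1 between treated and vehicle libraries left 3 higher members and no lower one. Cd5, whose level on the surface follows the strength of receptor signalling, measured 216, 203, 214 and 197 TPM in vehicle, 243, 268, 254 and 268 TPM with AOAH and 247, 254 and 257 TPM with PC. Every treated library stood more than 27 TPM above the highest vehicle library. AOAH and PC differed by 0.03 for Cd5 (95% interval -0.06 to 0.12, limma adjusted p = 0.582).

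Ptpn6, which removes phosphates from the receptor complex and its kinases, measured 142, 137, 140 and 143 TPM in vehicle, 165, 165, 162 and 173 TPM with AOAH and 160, 167 and 169 TPM with PC. No treated library lay below 159 TPM and no vehicle library above 144 TPM. Lcp2 averaged 137 TPM with AOAH, 132 with PC and 110 with vehicle; against vehicle 1 and 3 alone its PC difference was 0.16, against 0.26 with all 4. Ubash3b and Zap70 were higher with PC than with AOAH. Zap70 measured 171, 171 and 177 TPM with PC, 135, 145, 147 and 148 with AOAH and 131 to 135 in vehicle, so that AOAH 1 sat at the upper edge of vehicle. For Zap70 the AOAH minus PC difference was -0.26 (limma adjusted p = 6.28e-05), and for Ubash3b it was -0.29 (adjusted p = 0.00169). Grap2, an adaptor that binds SLP-76, averaged 103 TPM with AOAH, 127 with PC and 138 with vehicle.

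Feedback inhibitors of MAP kinases and of G protein signalling were among the higher members. Dusp4, Dusp5 and Dusp6, phosphatases that remove the activating phosphates of MAP kinases, were 3 of 12 tested genes of their list, and Rasa1, which switches off RAS, was its only lower member. Dusp6 measured 16.7, 14.8, 17.1 and 16.8 TPM in vehicle, 23.1, 21.1, 20.8 and 21.3 TPM with AOAH and 24.7, 25.3 and 25.5 TPM with PC. The 3 groups did not overlap, with PC highest and AOAH between. Dusp5 showed the same order, at 37.5 to 40.4 TPM in vehicle, 45.2 to 47.8 with AOAH and 58.6 to 64.8 with PC. AOAH minus PC was -0.21 for Dusp6 (limma adjusted p = 0.0093), -0.40 for Dusp5 (1.72e-05) and -0.19 for Dusp4 (0.0302). The Dusp4 call was lost without AOAH 1, AOAH 2, PC 1 or PC 2, with adjusted p up to 0.131, and with the batch block (0.0879). Rasa1 averaged 35.0 TPM with AOAH, 34.8 with PC and 40.3 with vehicle, and its difference between treatments was 0.01 (-0.09 to 0.10, adjusted p = 0.938).

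Regulators of G protein signalling (RGS), which shorten the signals of chemokine and other receptors, were looked at after Rgs2 had been named by rule. Of 9 tested RGS genes 3 were higher members and none was lower. Rgs1 averaged 168 TPM with AOAH, 148 with PC and 117 with vehicle. Rgs16 averaged 207, 253 and 171 TPM, and Rgs2 10.1, 12.02 and 7.26 TPM, in the same order. Between the treatments, Rgs16 lay lower with AOAH by an AOAH minus PC difference of -0.29 (limma adjusted p = 0.000325), and Rgs2, at -0.24, was not called (0.0516). Rgs1 lay higher with AOAH by 0.19 (adjusted p = 0.0266), a call lost without AOAH 4, PC 1 or PC 2 (up to 0.0946). The family median was -0.12 with AOAH and 0.17 with PC.

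Among transcription factors of early activation, 5 of 30 tested list genes were higher members and none was lower: Nr4a3, Egr2, Irf8, and the surface molecules Cd44 and Tnfrsf9 (4-1BB) that the list also holds. The list median was 0.15 with AOAH and 0.06 with PC. Against vehicle, limma called 14 genes of the list higher and 1 lower with AOAH, and 9 higher and 6 lower with PC. Background shares were 14.4% higher and 13.4% lower with AOAH, and 10.3% and 13.5% with PC. With a gap of at least 0.1 between treated and vehicle libraries, none of the 5 remained a member. Egr2, a zinc finger factor induced by receptor signalling, measured 41.7, 35.0, 35.6 and 35.5 TPM in vehicle, 48.2, 42.6, 46.9 and 42.1 TPM with AOAH and 48.1, 49.0 and 49.5 TPM with PC. Vehicle 1 stood apart from the other vehicle libraries and came closest to AOAH 4, the lowest treated library. Nr4a3, an orphan nuclear receptor induced by receptor signalling, averaged 101 TPM with AOAH, 89.6 with PC and 76.9 with vehicle. Its PC difference of 0.22 was 0.10 against vehicle 1 and 3 alone and 0.35 against vehicle 2 and 4 alone. Irf8 averaged 393, 353 and 318 TPM and Tnfrsf9 441, 454 and 394 TPM, with AOAH given before PC and vehicle. Nfatc1, the NFAT factor that its own activity induces, averaged 51.5, 56.4 and 44.7 TPM. AOAH lay 0.13 below PC for Nfatc1 (limma adjusted p = 0.0392), a call lost without any 1 of 5 treated libraries (AOAH 1 or 2, PC 1, 2 or 3; adjusted p up to 0.104) and with the batch block (0.0725). Bhlhe40 and Crem, chosen after their values were seen, averaged 37.0 and 39.2 TPM with AOAH, 41.8 and 44.1 with PC, and 28.9 and 31.8 with vehicle.

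The chemokines Ccl3 and Ccl4, neighbours in the genome that activated CD8+ T cells secrete to draw in other leukocytes, were the higher members among 21 tested cytokine and chemokine genes. Ccl3 measured 2469, 1985, 2410 and 2008 TPM in vehicle, 2925, 2926, 2840 and 2771 TPM with AOAH and 3146, 3063 and 3017 TPM with PC. It was thus 1.29-fold over vehicle with AOAH and 1.39-fold with PC, and its AOAH difference of 0.38 was 0.23 against vehicle 1 and 3 alone. Ccl4 averaged 1325 TPM with AOAH, 1672 with PC and 1217 with vehicle, and the AOAH minus PC difference was -0.34 (limma adjusted p = 5.29e-05). For Ccl4 the lowest AOAH library, at 1280 TPM, was only just above the highest vehicle library, at 1268 TPM, and the AOAH difference of 0.12 was 0.07 against vehicle 1 and 3 alone. The cytokine gene Osm was the lower member of the list, at 9.61 TPM with AOAH, 9.04 with PC and 11.2 with vehicle. Ifng, the main effector cytokine of these cells, was no member, with differences of -0.01 and 0.00.

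Cytotoxic effector genes went both ways. Nkg7 and Srgn, which encode a granule membrane protein and the proteoglycan core of the granules, were higher members, and the granzyme Gzmc and the factors Eomes and Id2 were lower members, of 20 tested. Srgn averaged 528 TPM with AOAH, 675 with PC and 463 with vehicle, and AOAH minus PC was -0.35 (limma adjusted p = 3.51e-06). Eomes, a T-box factor of effector and memory CD8+ cells, measured 99.6, 101, 96.6 and 99.5 TPM in vehicle, 87.2, 81.0, 86.9 and 84.2 TPM with AOAH and 81.0, 83.7 and 78.6 TPM with PC. Every treated library lay more than 9 TPM below the lowest vehicle library, and AOAH and PC overlapped. Id2, an inhibitor of E proteins, averaged 40.8, 36.5 and 50.9 TPM for AOAH, PC and vehicle. Its AOAH minus PC difference of 0.16 was called at an adjusted p of 0.048 with limma and was lost on leaving out any 1 of 8 libraries (all but AOAH 3, vehicle 2 and vehicle 3; up to 0.124) and with TMM-like rescaling (0.0704) or quantile normalization (0.109). Nkg7 and Eomes are also on the list of NK cell markers, whose defining genes Ncr1 and Klrb1c lay at or under 0.58 TPM in every library.

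Chaperones of the endoplasmic reticulum (ER), which fold secreted and membrane proteins, gave 7 higher members of 28 tested and no lower one: Hsp90b1, Dnajb11, Pdia4, Pdia6, Calr, Manf and the sensor Atf6. Their differences ran from 0.10 to 0.21 with AOAH and from 0.15 to 0.32 with PC, beside list medians of 0.08 and 0.23. With a gap of at least 0.1 between treated and vehicle libraries, 1 of the 7 remained a member, Hsp90b1. Hsp90b1 (GRP94) measured 406, 393, 404 and 382 TPM in vehicle, 461, 446, 448 and 456 TPM with AOAH and 438, 439 and 443 TPM with PC. The treated groups both stood more than 30 TPM above vehicle, AOAH slightly above PC, by 0.04 (-0.01 to 0.09, limma adjusted p = 0.178). Manf, a secreted ER stress protein, averaged 577 TPM with AOAH, 664 with PC and 530 with vehicle, with an AOAH minus PC difference of -0.20 (adjusted p = 4.25e-05). Pdia6 and Calr, a disulphide isomerase and a calcium-binding chaperone, were called at -0.09 (adjusted p = 0.0286) and -0.07 (0.0284). Both calls were lost on leaving out any 1 of several treated libraries: AOAH 2, AOAH 3, PC 1 or PC 3 for either gene and also AOAH 4 for Calr, with adjusted p up to 0.104. The Calr call was also lost with the batch block (0.0534) and with TMM-like rescaling (0.116). Hspa5 (BiP), the main ER chaperone, was no member although it differed by 0.13 with AOAH (adjusted p = 0.013) and 0.26 with PC (adjusted p = 0.000259, limma). Atf6 lay at 6.92 TPM or less in vehicle and at 7.26 TPM or more in treated cells, and its differences of 0.21 and 0.23 were 0.12 and 0.14 against vehicle 1 and 3 alone.

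Of the 7 chaperone members 5 had a promoter in the RefSeq table, and those of Dnajb11 and Pdia4 lacked the letters searched. The promoters of the other 3 hold the ER stress response element, spelled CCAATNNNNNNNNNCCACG, to which ATF6 and NF-Y bind, and they are shown for that reason. The sequences are from RefSeq on build GRCm38.p6 of the mouse genome, which is not the mm39 build the authors used, and run up to the base before the annotated start of the gene, with the element on either strand in capitals.
Hsp90b1, chr10:86705445-86705694, minus strand: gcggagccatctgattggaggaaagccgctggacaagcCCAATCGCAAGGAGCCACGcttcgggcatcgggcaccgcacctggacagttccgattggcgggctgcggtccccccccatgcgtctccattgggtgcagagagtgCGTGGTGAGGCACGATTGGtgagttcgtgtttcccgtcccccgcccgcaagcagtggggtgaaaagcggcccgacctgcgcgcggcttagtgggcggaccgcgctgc
Calr, chr8:84846932-84847181, minus strand: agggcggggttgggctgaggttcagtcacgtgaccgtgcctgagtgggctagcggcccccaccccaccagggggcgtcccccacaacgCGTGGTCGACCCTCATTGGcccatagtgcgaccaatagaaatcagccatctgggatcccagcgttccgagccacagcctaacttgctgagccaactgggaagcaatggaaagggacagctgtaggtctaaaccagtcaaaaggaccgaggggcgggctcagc
Pdia6, chr12:17266489-17266588, plus strand: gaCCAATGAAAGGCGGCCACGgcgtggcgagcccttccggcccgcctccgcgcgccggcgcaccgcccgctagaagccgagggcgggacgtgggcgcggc
Hsp90b1 held 2 matches, starting 212 and 107 bases before the start, Calr held 1 at 162 bases and Pdia6 held 1 at 98 bases. In windows of 300 bases, from 250 before to 50 after the start, 39 of 32851 promoters (0.119%), or 0.137% of 27025 genes, held the element on either strand, as did 3 of the 160 higher members in the table (1.88%) and none of the 110 lower members. The background takes in genes at any expression level, while members reach 1 TPM, so these shares compare unlike sets. A match is a description of these letters and does not show that a factor binds there.

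Further protein families work beside the chaperones in the ER. This group was put together after the values were seen, from whole families: oligosaccharyltransferase, translocon-associated proteins, signal peptidase, the ER membrane protein complex, disulphide isomerases, and KDEL receptors with p24 cargo proteins. Of 53 tested genes of these families 16 were higher members and none was lower, beside 1.84% and 1.27% of all genes tested. Since the families were chosen after the values were seen, this count is a description and supports nothing further. Family medians ran from 0.06 to 0.12 with AOAH and from 0.07 to 0.17 with PC. The 16 members include Pdia4 and Pdia6, already counted among the chaperones, and Pdia3, which the MHC class I list also holds. Stt3a, a catalytic subunit of the enzyme that attaches sugar chains to new proteins, had the largest difference, at 416 TPM with AOAH, 417 with PC and 328 with vehicle. AOAH libraries of Stt3a spread widely, from 365 to 476 TPM, while PC lay between 410 and 429 TPM. Ssr2, a subunit of the translocon-associated complex, was tight in every group, at 265 to 277 TPM with AOAH, 281 to 295 with PC and 244 to 247 in vehicle.

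Members of the ATF4 and integrated stress response list numbered 4 of 24 tested, all higher: Atf4 itself, Cebpg, Slc7a5 and Eif4ebp1. Atf4, the factor translated when eIF2 is phosphorylated, measured 224, 225, 228 and 215 TPM in vehicle, 241, 243, 235 and 239 TPM with AOAH and 256, 249 and 246 TPM with PC. The separation was narrow, with 235 TPM as the lowest treated library against 228 TPM as the highest vehicle library. Eif4ebp1, a repressor of cap-dependent translation, averaged 41.8 TPM with AOAH, 45.1 with PC and 34.3 with vehicle. Slc7a5, the large neutral amino acid transporter LAT1, differed by 0.13 and 0.06 (0.03 for PC against vehicle 1 and 3 alone) and Cebpg by 0.06 and 0.12. Neither difference of Cebpg was called by limma (adjusted p = 0.343 and 0.0737), nor was the PC difference of Slc7a5 (0.156). For Cebpg, AOAH 2 lay at 16.53 TPM and vehicle 3 at 16.51 TPM. With a gap of at least 0.1 none of the 4 remained a member. Against vehicle, 9 genes of the list were called higher and 3 lower with AOAH, and 12 higher and 3 lower with PC. Background shares were 14.4% higher and 13.4% lower with AOAH, and 10.3% and 13.5% with PC. None of the 4 was called between AOAH and PC, but the rule itself keeps the AOAH and PC levels of a member near each other. Of the 24 tested genes of the list, limma called 7 higher with AOAH than with PC and 11 lower. Over all genes tested these shares were 24.6% and 22.2%.

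Bcl2a1b and Bcl2a1d, near-identical neighbouring copies of the survival gene A1, and Phlda3, a p53 target that restrains AKT, were the higher members among 31 tested genes of the BCL2 family and p53 targets. A gap of at least 0.1 between treated and vehicle libraries left 1 of these members. The list median was -0.01 with AOAH and 0.10 with PC. By limma against vehicle, 6 genes of the list were called higher and 9 lower with AOAH, and 11 higher and 4 lower with PC. Among all genes tested, 14.4% were called higher and 13.4% lower with AOAH, and 10.3% and 13.5% with PC. Bcl2a1d averaged 85.3 TPM with AOAH, 85.5 with PC and 68.2 with vehicle, and Bcl2a1b 200, 186 and 159 TPM. Reads of these copies can be shared in counting, so their split is uncertain. Phlda3 averaged 8.40, 8.43 and 6.97 TPM, and its differences of 0.24 and 0.24 were 0.16 and 0.16 against vehicle 2 and 4 alone. Its PC difference was not called by limma (adjusted p = 0.0638).

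Genes of phosphatidylcholine synthesis and acyl remodelling, the class of lipid given to the PC libraries, gave 3 members of 30 tested, a share of 6.67% higher and 3.33% lower. Mboat7, the acyltransferase that places arachidonic acid on phosphatidylinositol, measured 40.0, 39.4, 40.7 and 41.8 TPM in vehicle, 44.7, 47.6, 46.1 and 45.1 TPM with AOAH and 46.9, 44.8 and 43.7 TPM with PC. The treated groups overlapped and lay 1.13-fold and 1.12-fold over vehicle. Plaat3, a phospholipase and acyltransferase of phosphatidylcholine, lay lower with both, at 34.9 TPM with AOAH, 35.6 with PC and 42.0 with vehicle. Pld3, an endolysosomal member of the phospholipase D family, was a member by a thin margin with AOAH: 55.0 to 59.9 TPM, against 53.3 to 54.4 in vehicle and 76.0 to 79.1 with PC. Its AOAH minus PC difference was -0.44 (limma adjusted p = 1.66e-06). Crem was the only member among 17 tested eicosanoid and cyclic AMP response genes, and Elovl1 and Hsd17b12, which elongate fatty acids, were the members among 15 tested genes of fatty acid synthesis.

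Guanylate-binding proteins (GBP) and immunity-related GTPases (IRG), interferon-induced GTPases that attack vacuoles of intracellular microbes, gave the densest group of lower members. Of 17 tested genes 9 (52.9%) were lower members and none was higher: Gbp2, Gbp4, Gbp5, Gbp6, Gbp9, Gbp10, Igtp, Iigp1 and Ifi47. Gbp2 measured 535, 532, 528 and 524 TPM in vehicle, 406, 371, 413 and 370 TPM with AOAH and 428, 444 and 431 TPM with PC. The 3 groups did not overlap, with AOAH lowest at 0.735 of vehicle and PC at 0.82. Gbp6 showed the same order, at 118, 117, 115 and 120 TPM in vehicle, 79.2, 76.4, 84.3 and 75.6 TPM with AOAH and 96.1, 100 and 96.5 TPM with PC. Ifi47 averaged 393 TPM with AOAH, 416 with PC and 492 with vehicle.

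For 7 of the 9 GTPase members the level was called lower with AOAH than with PC by limma, and for none was it called higher, beside 22.2% of all genes tested that were called lower. All 8 of the list's other genes were called lower too, so this does not set the members apart. The largest of these differences were -0.55 for Gbp10 (adjusted p = 0.000288) and -0.54 for Gbp9 (8.85e-06). Gbp5 and Ifi47 were not called; Gbp5 averaged 79.2 TPM with AOAH and 73.2 with PC beside 91.3 with vehicle. Igtp was a member by a thin margin with PC, at 402, 416 and 411 TPM, against 417, 432, 417 and 441 in vehicle and 301 to 328 with AOAH. Against vehicle, the other 8 genes were called lower with AOAH, and 3 of them were called higher with PC: Irgm2 by 0.18, Tgtp1 by 0.16 and Gvin1 by 0.28. Among all genes tested, 13.4% were called lower with AOAH and 10.3% higher with PC. The list median was -0.51 with AOAH and -0.06 with PC. Gbp4, Gbp6, Gbp9 and Gbp10 follow each other in the genome and resemble each other, so the division of reads among them is uncertain.

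**Figure D3:**
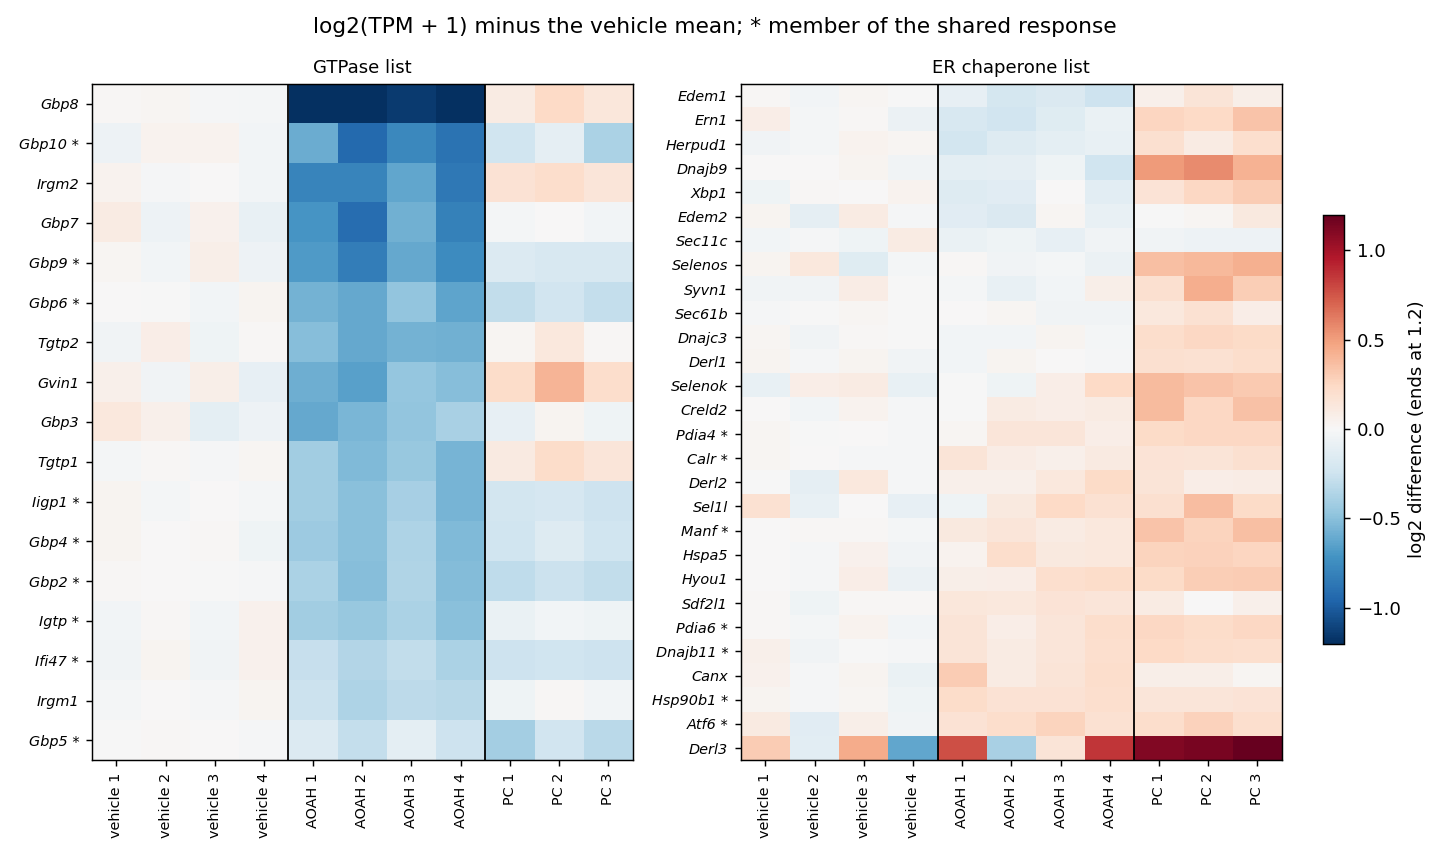
Level of each tested gene of the GTPase list (left) and the ER chaperone list (right) in each library as log2(TPM + 1) minus the mean of the 4 vehicle libraries, in colour, with blue lower and red higher; asterisks mark members and genes are ordered by their AOAH difference. Colours end at 1.2, which Gbp8 with AOAH and Derl3 with PC exceed; the 9 marked GTPases are blue, some faintly, in all 7 treated columns, and Irgm2, Tgtp1 and Gvin1 are blue with AOAH and red with PC.

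The promoters of Gbp2, Gbp5 and Igtp carry letters that interferon-activated factors bind and are shown for that reason, from the same RefSeq table and build. Capitals mark the core of the interferon-stimulated response element, GAAANNGAAA, and the gamma-activated site, TTCNNNGAA, on either strand.
Gbp2, chr3:142620563-142620662, plus strand: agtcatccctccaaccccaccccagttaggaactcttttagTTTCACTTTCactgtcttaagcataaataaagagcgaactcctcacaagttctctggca
Gbp5, chr3:142496684-142496933, plus strand: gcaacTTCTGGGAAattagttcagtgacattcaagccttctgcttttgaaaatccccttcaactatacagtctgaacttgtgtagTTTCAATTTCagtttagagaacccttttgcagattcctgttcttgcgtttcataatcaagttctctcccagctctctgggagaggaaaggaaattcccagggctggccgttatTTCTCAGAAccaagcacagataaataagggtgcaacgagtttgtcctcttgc
Igtp, chr11:58199456-58199555, plus strand: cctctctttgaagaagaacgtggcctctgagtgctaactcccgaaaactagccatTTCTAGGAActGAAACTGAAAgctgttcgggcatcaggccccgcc
Gbp2 held the response element 59 bases before the start, Gbp5 held it at 165 bases and gamma-activated sites at 245 and 52 bases, and Igtp held both, at 34 and 45 bases, without overlap. In windows of 300 bases, 3.44% of all 32851 promoters held the response element and 8.30% the gamma-activated site; counted by gene, as the members are, the shares were 3.99% and 9.55% of 27025 genes. Among the 110 lower members with a promoter there, 16 held the response element (14.5%) and 14 the gamma-activated site (12.7%), and among the 160 higher members 9 (5.62%) and 18 (11.2%) did. Only 4 of the 9 GTPase members were in the table: these 3 and Ifi47, which held neither. A match again describes letters only, and the background again takes in genes at any expression level.

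Other interferon-related lower members were fewer. Of 38 tested interferon-stimulated genes 2 were members, of which Isg15 is described; that list had a median of -0.59 with AOAH and 0.04 with PC. Isg15, a ubiquitin-like modifier, measured 12.5, 12.4, 14.8 and 13.4 TPM in vehicle, 9.61, 9.27, 11.3 and 9.30 TPM with AOAH and 10.1, 8.15 and 10.2 TPM with PC. The treated groups overlapped and differed by 0.05 (-0.15 to 0.26, limma adjusted p = 0.675). In the authors' DESeq2 tables neither difference of Isg15 from vehicle was called (adjusted p = 0.34 with AOAH and 0.484 with PC). Irf1, on none of the lists and chosen after its values were seen, averaged 148, 199 and 206 TPM, so that PC lay close under vehicle.

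In MHC class I presentation, the 3 catalytic subunits that interferon swaps into the proteasome, Psmb8, Psmb9 and Psmb10, were the lower members, and the chaperones Calr and Pdia3 of the peptide-loading complex were the higher members, of 23 tested genes. Psmb8 measured 718, 760, 739 and 769 TPM in vehicle, 654, 595, 677 and 624 TPM with AOAH and 677, 661 and 660 TPM with PC. Psmb9 averaged 121 TPM with AOAH, 113 with PC and 139 with vehicle, and Psmb10 171, 183 and 202 TPM. All 3 subunits lay below vehicle in every treated library, as the rule requires. For Psmb9 the margin was thin, with 128.12 TPM in AOAH 1 and 129.36 TPM in vehicle 3. None of the 3 was called between AOAH and PC (adjusted p = 0.206, 0.17 and 0.0755 with limma). The 95% interval of that difference stayed within 0.25 for each, and for Psmb10 it left out 0 (-0.198 to -0.00656). With a gap of at least 0.1 between treated and vehicle libraries, no member of the list remained, higher or lower. The list median was -0.24 with AOAH and 0.04 with PC.

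Of 25 tested chemokine and trafficking receptors, 3 were lower members and none was higher. None of the 3 remained with a gap of at least 0.1 between treated and vehicle libraries. The list as a whole did not lie below vehicle with PC: its median was -0.29 with AOAH and 0.08 with PC. By limma against vehicle, 1 gene of the list was called higher and 15 lower with AOAH, and 7 higher and 2 lower with PC. The shares over all genes tested were 14.4% higher and 13.4% lower with AOAH, and 10.3% and 13.5% with PC. Cxcr3, which guides effector cells to interferon-induced chemokines, measured 30.5, 30.4, 30.8 and 33.5 TPM in vehicle, 25.4, 23.7, 26.9 and 24.6 TPM with AOAH and 26.3, 28.4 and 27.3 TPM with PC. The treated groups overlapped, and the gap to vehicle was 2 TPM. Il10ra, the interleukin-10 receptor, averaged 15.9 TPM with AOAH, 14.7 with PC and 19.8 with vehicle. Itgae, the CD103 integrin of tissue-resident cells, and Ccr2, a chemokine receptor near the expression floor, were the other members of the chemokine and trafficking list. Of 24 tested genes of interleukin-2 and STAT5 signalling 3 were lower members: the survival kinase Pim2 (289, 300 and 331 TPM with AOAH, PC and vehicle), Osm, and Tnfrsf8 (CD30). These 3 were also lost with the gap of at least 0.1. The TNF family ligand Tnfsf10 (TRAIL) averaged 5.84, 4.82 and 6.91 TPM. PC lay below AOAH for Tnfsf10 with a difference of 0.23 (limma adjusted p = 0.0161), lost without PC 3 (0.0564). Ppp3cc, a catalytic subunit of the calcium-dependent phosphatase calcineurin, averaged 43.9, 39.9 and 52.8 TPM. Its AOAH minus PC difference of 0.13 (adjusted p = 0.0233) was lost without AOAH 1, PC 2 or PC 3 (up to 0.0763).

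The largest shared changes by rule took in genes on none of the lists. The 4 with the largest values among higher members were Slc9b2, Tacc2, Lag3 and Adarb1. Slc9b2, a sodium/proton exchanger, measured 7.29, 5.89, 4.35 and 4.80 TPM in vehicle, 9.34, 10.5, 9.97 and 9.09 TPM with AOAH and 9.09, 9.30 and 11.1 TPM with PC. Vehicle libraries spread over a wider relative range than treated ones, yet none reached 9 TPM. Tacc2, a centrosomal protein, averaged 36.3 TPM with AOAH, 39.5 with PC and 22.5 with vehicle, and Adarb1, an RNA-editing deaminase, 10.97, 11.1 and 7.29 TPM. Gramd1b, which carries cholesterol from the plasma membrane to the ER, averaged 71.6, 75.4 and 54.2 TPM. The receptor kinase Axl, the kinesin Kifc3 and Srgap3, which acts on RAC, completed the 12 largest higher members together with Rgs2, Dusp6, Ccl3 and Pdcd1, and lay between 5.55 and 6.45 TPM with AOAH.

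Among lower members the largest shared change by rule was that of Eif4e3, a cap-binding protein that competes with eIF4E. It measured 15.7, 15.9, 16.8 and 18.4 TPM in vehicle, 11.3, 10.7, 11.1 and 10.2 TPM with AOAH and 10.8, 11.02 and 12.1 TPM with PC. Treated libraries overlapped and lay at 0.649 and 0.677 of vehicle. Adgrg5, an adhesion G protein-coupled receptor, measured 6.48 to 7.30 TPM with AOAH, 7.04 to 8.51 with PC and 10.2 to 12.4 in vehicle. Gimap7, a GTPase of lymphocyte survival, averaged 37.8, 34.4 and 50.6 TPM for AOAH, PC and vehicle. Glrx, a glutaredoxin, averaged 37.8, 31.6 and 50.6 TPM, and Mov10, an RNA helicase with antiviral activity, 19.4, 13.9 and 26.1 TPM. Matk, a kinase that inhibits SRC family kinases, lay under the 5 TPM that naming required and is given because it had the largest shared change of all lower members, with 4.67 TPM in vehicle, 2.44 with AOAH and 2.26 with PC.

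The test of AOAH against PC asked which members differed in size between the treatments. Among all genes tested limma called 24.6% higher with AOAH than with PC and 22.2% lower. Among the 360 members 40 were called higher and 76 lower, and 244 were not called. In 61 of the 116 called the AOAH difference from vehicle was the larger, and in 55 the PC difference was. The call held with each of the 11 libraries left out in turn for 73 of the 116. The 95% interval of the AOAH minus PC difference lay wholly within 0.25 of 0 for 155 of 213 higher members (72.8%) and 79 of 147 lower members (53.7%), beside 26.4% of all genes tested. Requiring the same side of vehicle keeps the treatments near each other, and genes of small spread have narrower intervals, so this share is not independent of the rule. For 50 members neither a call nor such an interval was had, so their difference was not bounded at this precision.

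Which treatment lay farther from vehicle was counted in each direction. Among called higher members AOAH lay farther in 25 and PC in 40, and among called lower members AOAH lay farther in 36 and PC in 15. The largest differences by rule were in lower members. Itgae measured 13.3, 14.2, 12.97 and 13.5 TPM in vehicle, 6.96, 6.92, 7.74 and 6.43 TPM with AOAH and 12.4, 12.3 and 11.8 TPM with PC. AOAH lay near 0.52 of vehicle while PC lay just under it, and AOAH minus PC was -0.72 ± 0.061 (SE, limma adjusted p = 2.9e-06). Art2b, an ADP-ribosyltransferase on T cells, H2-DMa, a peptide exchanger of MHC class II, and Nsg2, a vesicle protein on the list of naive T cell genes, followed at -0.66, -0.61 and -0.59 (adjusted p = 1.61e-05, 4.22e-05 and 4.04e-06).

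In the other direction Tnfrsf8 measured 5.93, 6.53, 6.19 and 6.11 TPM in vehicle, 4.96, 5.51, 4.82 and 4.76 TPM with AOAH and 2.20, 2.34 and 2.48 TPM with PC. PC libraries were all below 2.5 TPM and AOAH libraries all above 4.7 TPM, and AOAH minus PC was 0.85 ± 0.069 (SE, limma adjusted p = 2.38e-06). Susd3, Mov10 and Gprin3 followed at 0.48, 0.46 and 0.37 (adjusted p = 0.00118, 0.000224 and 0.00049).

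**Figure D4:**
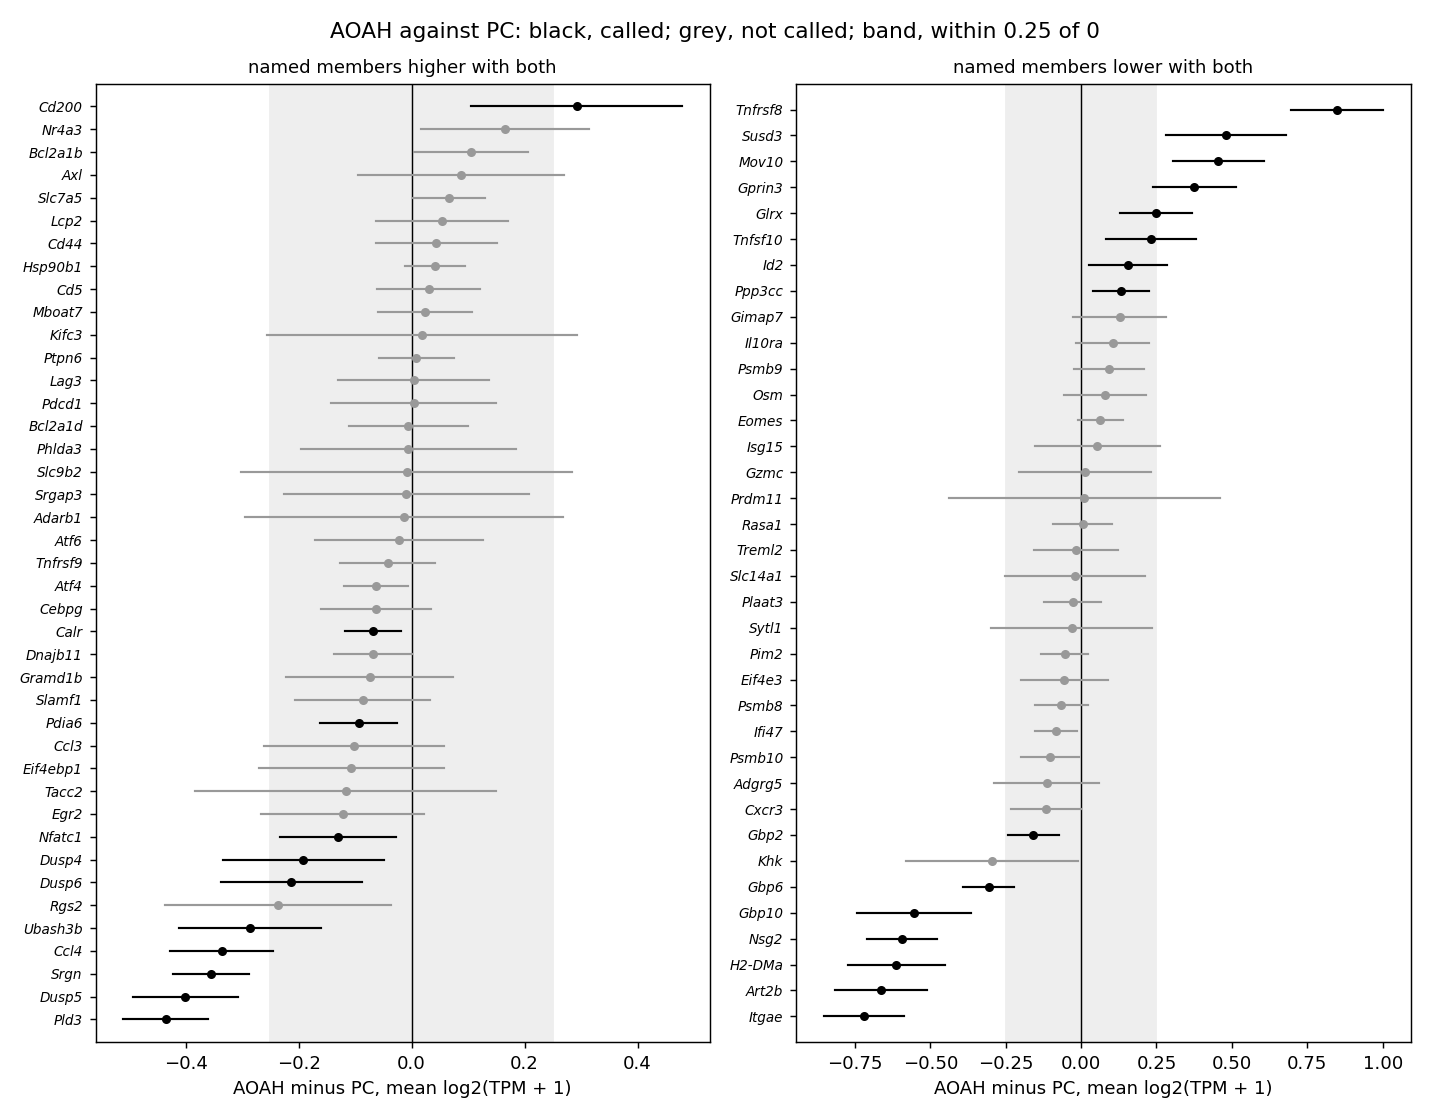
AOAH minus PC in mean log2(TPM + 1), with its 95% interval from limma, for each named member, higher members at left and lower members at right; black marks an adjusted p under 0.05, grey marks none, and the band runs from -0.25 to 0.25. The axes of the panels differ; Lag3 and Pdcd1 sit at 0.00 inside the band, and Itgae at -0.72 and Tnfrsf8 at 0.85 lie farthest from it.

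At the edges of the rule the members differ little from their neighbours outside. The members of lowest level were Hspa1l at 1.14, Gm18541 at 1.16 and Gm42427 at 1.27 TPM, and Fbln2 at 0.997, Raver2 at 0.992 and Rps15-ps2 at 0.973 TPM would have met the rule but for the floor. The narrowest gaps between treated and vehicle libraries were those of Elovl1 (97.82 TPM in AOAH 4 against 97.78 in vehicle 1), Rpl10a and Sp110. Gtf2i missed by a tie, with 85.08 TPM in both AOAH 3 and vehicle 2. Rps12l1 and Trav7d-2 also missed by a tie, each being listed at 0 in all libraries but 1.

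In the authors' deposited tables, 113 of 205 higher members with an adjusted p were called higher with AOAH (8.55% of all genes in that table) and 89 of 205 with PC (5.74%). For lower members the authors' deposited tables called 85 of 145 lower with AOAH (8.71% of all genes) and 52 of 144 with PC (7.71%). In neither of the authors' deposited tables was a member called in the opposite direction. These tables come from the same libraries and are no independent support. In the order of genes along the genome, 10 runs of adjacent members of 1 direction held 22 of the 353 members that could be placed, among them Ccl3 with Ccl4, Rgs2 with Rgs1, Bcl2a1d with Bcl2a1b, and Gbp9, Gbp4, Gbp10 and Gbp6.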

How the data were processed

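RNA was measured in 4 AOAH, 3 PC and 4 vehicle libraries, grouped by the treatment label. The authors deposited log2 values of TPM plus 1 for 25562 gene symbols, made with RSEM on mm39, per the submitters' processing notes; no aligner, annotation or version was given in the sources used here. The DESeq2 tables that the authors deposited give log2 fold changes and adjusted p-values. Depth is unknown.

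Values were turned back to TPM for the rule. Differences came from limma 3.58.1 in R 4.3.3 on log2(TPM + 1), pseudocount 1, with trend and robust variances, two-sided, in 1 fit of 11 libraries and the 11596 genes at or above a mean of 1 TPM; Benjamini-Hochberg adjustment was over these genes, with a threshold of 0.05. On this scale a difference understates the change of low genes. The fit was tested on simulated data. Tables were made with Python 3.11.15, pandas 2.3.3 and numpy 2.4.6. Motifs were searched in RefSeq promoters (GRCm38.p6), matched by symbol for 270 of 360 members.

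Members and gene lists were chosen with earlier results of these data known. Of members with a symbol of their own and at least 5 TPM in treated or vehicle cells, those named were the 12 higher and 12 lower of largest shared change, up to 4 of each list with 3 or more members, and the 4 of largest called AOAH minus PC difference each way. For the thresholds, 3 genes on each side were named, whatever their name or level. Members of a list beyond these, and non-members, were named after their values were seen. Some results are not reported here.

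The batch labels pair libraries across groups. Deviations from the group means correlated by -0.0033 on average in 10 same-batch pairs (-0.0794 to 0.118) and by 0.0011 in 30 other pairs (-0.125 to 0.140). Alternatives were another floor, 3 other scalings, pseudocounts of 0.1 and 5, a minimum gap, a batch block, array weights, fewer groups in the fit, and each library left out.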

Additional observations from a re-analysis of the deposited data

Results flagged for a closer look

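In 6 of 154 groups of 4 libraries examined among the named members, 1 library stood apart from the other 3 by more than Dixon's limit, which chance alone passes in about 1 of 20 groups. Sytl1, a granule-docking protein, measured 12.99 TPM in vehicle 2, against 8.48 to 9.1 in the other vehicle libraries. The receptor Treml2 measured 12.88 TPM in AOAH 3, against 11.09 to 11.3 with AOAH otherwise, and Isg15 measured 11.3 TPM in that same library, against 9.27 to 9.61. Egr2 measured 41.67 TPM in vehicle 1, against 35.05 to 35.59. Cxcr3 measured 33.48 TPM in vehicle 4, against 30.37 to 30.84. Tnfsf10 measured 7.31 TPM in vehicle 3, against 6.75 to 6.8. In each of these 6 genes every treated library still lay on 1 side of every vehicle library, as the rule requires.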

How the results depend on the processing

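The number of members depends on how strictly the sides are kept apart. A gap of at least 0.1 between the nearest treated and vehicle libraries left 39 higher and 49 lower members. The replicate block, in which each treated library was set only against the vehicle library of its batch, gave 462 and 366, since it asks for fewer comparisons. Leaving out 1 library gave 225 to 326 higher and 162 to 226 lower members, most without vehicle 3 (326 higher) and vehicle 4 (226 lower). With vehicle 1 and 3 only, an alternative added after seeing the data, there were 391 higher and 527 lower members, and with vehicle 2 and 4 only 726 and 367. With libraries left out the rule is easier to meet, and all 213 higher and 147 lower members were kept under each of these settings except the gap. TMM-like rescaling kept 194 of 213 and 117 of 147 members, and quantile normalization 161 and 113. The counts of AOAH against PC, AOAH against vehicle and PC against vehicle stayed within 1.5 times under every alternative run, the replicate block included, and no called difference of a named gene changed sign. Without a filter on low values, where more genes share the adjustment, the AOAH minus PC calls of Calr (adjusted p = 0.0543), Dusp4 (0.0657), Nfatc1 (0.0826), Pdia6 (0.0633) and Id2 (0.104) were lost. Of the 26 named members called between AOAH and PC, the only ones followed under the alternatives for that contrast, the block ended the calls of Calr (adjusted p = 0.0534), Dusp4 (0.0879) and Nfatc1 (0.0725) and of no other.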
